A study of Mus musculus with 12 samples.

Results

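The genes described here build the synaptic junction: the adhesion proteins that span the cleft and the scaffolds that sit under the postsynaptic membrane. They are 41 named genes from 11 groups, from neurexins and neuroligins to the scaffold families Dlg, Dlgap, Shank and Homer, and each was read from the probe set of its symbol with the highest mean over 12 arrays. A probe set with a single gene symbol was at hand for 40 of the 41, out of 19938 symbols on the array. Cadm2 had none and has no value. All 40 lay above the lowest 25% of genes by mean level, which were not tested, so 40 of the 14953 genes tested are members.

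The arrays measured total RNA from neurons differentiated for 16 days from D3 mouse embryonic stem cells, through embryoid bodies, the cell aggregates formed without the self-renewal factor LIF. The 4 groups were unmodified D3 cells, D3 cells carrying a scrambled sequence (siSCR), and D3 cells with a knockdown of Prmt1 (siPRMT1) or of Prmt8 (siPRMT8), which encode protein arginine methyltransferases. Each group had 3 arrays labelled as biological replicates. The sample titles name no further treatment for any group. The labels do not say whether a line is 1 clone or how the sequences were introduced. The p-values therefore measure the spread between cultures and not between independently made lines.

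At a synapse, presynaptic neurexins bind neuroligins and leucine-rich repeat proteins on the receiving cell, and the tails of these proteins reach into a dense protein layer. In that layer the PDZ scaffolds of the Dlg family hold glutamate receptors, Dlgap proteins link them to Shank, and Homer ties Shank to further receptors and to actin. Calcium/calmodulin-dependent kinase II (CaMKII) is the main kinase of this layer, and gephyrin is the scaffold of inhibitory synapses.

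The members were on average lower in the knockdown lines, and 1 control array lay between the groups. On the deposited log2 scale, where 1 is a 2-fold difference, the mean over the 40 members was 7.87 to 7.90 in the D3 arrays, 7.15 to 7.21 in the siPRMT1 arrays and 7.12 to 7.26 in those of siPRMT8. For siSCR it was 7.39 in replicate 1 and 7.99 and 7.91 in replicates 2 and 3. That array was the lowest of its group in 35 of 40 members, at a median difference of -0.58 from the other siSCR arrays, against 0.04 over all genes tested. On the first principal component of all genes, which held 61.4% of the variance, it lay at 0.105, the other controls at -26.2 to -21.6 and the knockdown arrays at 13.6 to 25.7.

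Markers of whole neurons moved in the same arrays. The mean log2 value of 10 pan-neuronal markers, among them Tubb3, Map2 and Snap25, was 9.80 to 9.94 in D3, 8.74, 9.87 and 9.81 in siSCR, 8.51 to 8.80 for siPRMT1 and 8.73 to 8.91 for siPRMT8. At 8.74, siSCR replicate 1 lay within the range of the knockdown arrays. Against siSCR, 7 of the 10 were lower in siPRMT1 (median log2 difference -0.89) and 5 of 10 in siPRMT8 (median -0.65), and against D3 9 of 10 were lower in each. Of 7 astrocyte markers tested, 7 were lower in siPRMT1 and 6 in siPRMT8 against siSCR, while of 8 neural progenitor markers 1 was lower and 1 higher in siPRMT1 and 4 were higher in siPRMT8. Against D3, 7 of the 7 astrocyte markers were lower in each line, and of the 8 progenitor markers 3 were lower and 0 higher in siPRMT1, and 1 lower and 2 higher in siPRMT8. Of 7 mesenchymal markers 4 were lower in each line against siSCR and 2 in each against D3, and of 7 cell cycle markers 2 and 3 were higher against siSCR and 3 and 3 against D3. Fewer neurons and less of these RNAs per neuron cannot be told apart in bulk RNA, and the part of cell makeup in the differences below was not tested. None of the 8 pluripotency markers passed in either knockdown line against siSCR, 1 was higher in each against D3, and their mean level was 9.21 to 10.3 over the arrays. Prmt1 was at 8.84, 8.74 and 8.87 in siSCR and 7.72, 7.95 and 7.59 in siPRMT1, a difference of -1.06 (adjusted p = 0.000115), and was higher in siPRMT8 than in siSCR by 0.43 (adjusted p = 0.00625). Prmt8 was lower in siPRMT8 than in siSCR at a log2 difference of -0.61 (adjusted p = 0.0171), and it lay at -0.32 in siPRMT1 (adjusted p = 0.177). Against D3, Prmt8 was lower in both lines, at -0.75 in siPRMT1 (adjusted p = 0.00488) and -1.04 in siPRMT8 (adjusted p = 0.000993). The 2 knockdown lines did not differ in Prmt8 at the threshold (log2 difference of siPRMT1 from siPRMT8 0.29, adjusted p = 0.489).

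**Figure D1:**
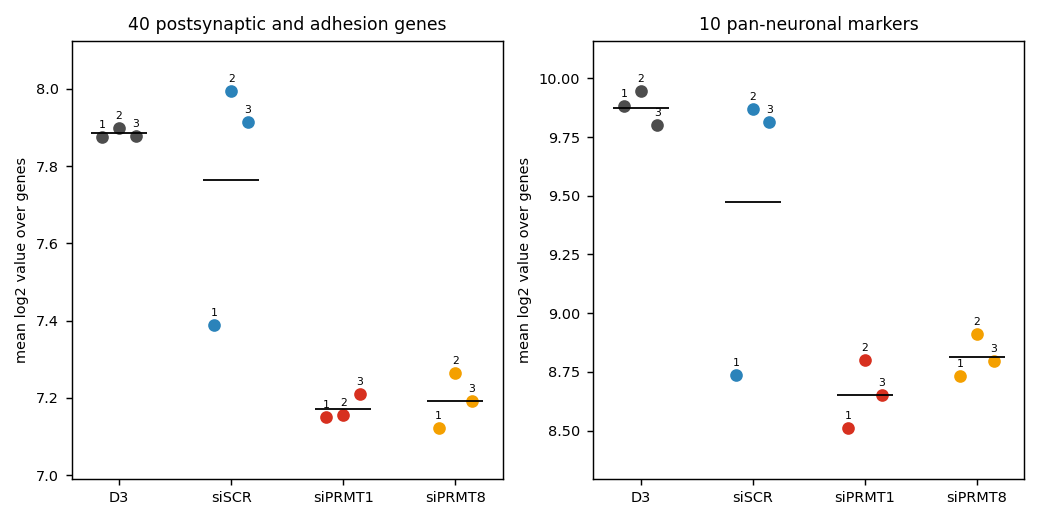
Mean log2 value in each array over the 40 members (left) and over 10 pan-neuronal markers (right), by group; points are arrays numbered by replicate and bars are group means. The knockdown arrays lie below the D3 arrays in both panels, and siSCR replicate 1 (7.39 over the members, 8.74 over the markers) lies below the other siSCR arrays. Over the markers siSCR replicate 1 lies within the range of the knockdown arrays (8.51 to 8.91).

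Most members were lower in each knockdown line against each control, and almost none were higher. Against siSCR, 22 of 40 members were lower and 0 higher in siPRMT1, where 18.7% of all genes tested passed in either direction, 11.6% lower and 7.18% higher. In siPRMT8 against siSCR 23 were lower and 1 higher, where 23.8% of all genes passed, 13.2% lower and 10.7% higher. Against D3, siPRMT1 had 24 lower and 1 higher (26.4% of all genes passed, 14.7% lower and 11.7% higher), and siPRMT8 had 26 lower and 0 higher (27.7% passed, 15.2% lower and 12.5% higher). The median log2 difference over the 40 members was -0.54 and -0.48 against siSCR and -0.64 and -0.63 against D3, where the medians over all genes tested were 0.04, 0.01, 0.05 and 0.03. Here and below a call is a limma adjusted p under 0.05, with 1 model over all 12 arrays and Benjamini-Hochberg adjustment over all genes tested. The comparisons of the 2 knockdown lines with a control share that control's arrays.

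By pattern, 22 members were lower in all 4 of these comparisons, 6 passed in some of them and 12 passed in none. For 20 of the 22, all except Lrrtm1 and Slitrk2, every one of the 6 knockdown arrays lay below every one of the 6 control arrays, which held for 9.49% of all genes tested. No member lay above in all 6, against 7.06% of all genes. The counts against siSCR move with single siSCR arrays. Without replicate 1, 27 members were lower and 1 higher in each knockdown line. Without replicate 2 the calls were 17 and 17, and without replicate 3 they were 16 and 16. Calls over all 14953 genes moved too. In siPRMT1 they went from 1728 lower and 1073 higher to 2146 and 1617 without replicate 1. They were 925 and 393 without replicate 2, and 964 and 353 without replicate 3. In siPRMT8 they went from 1970 and 1595 to 2223 and 1884, 1071 and 925, and 1109 and 752. With only the 6 arrays of siPRMT1 and siSCR in the fit, 3 members passed (Nlgn3, Dlg4 and Camk2b) in place of 22, and 2.39% of all genes tested did. The other 19 were then at adjusted p from 0.0501 to 0.117, with the same differences. Fits of the same form gave 19 calls in siPRMT8 against siSCR, 26 in siPRMT1 against D3 and 32 in siPRMT8 against D3 (19.6%, 22.1% and 40.1% of all genes).

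**Figure D2:**
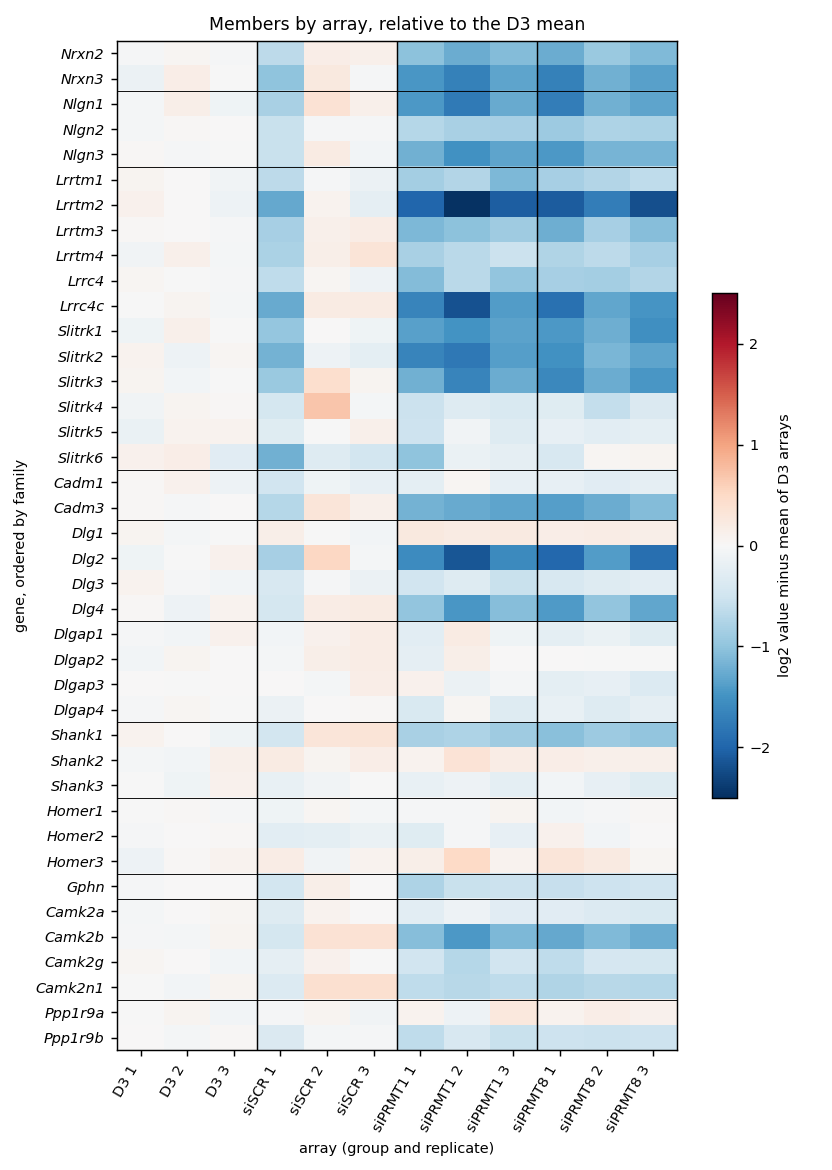
Log2 value of each of the 40 members in each of the 12 arrays, minus the mean of the 3 D3 arrays, with genes ordered by family and blue marking values below D3. The columns of siPRMT1 and siPRMT8 are blue for the 22 members lower in all 4 comparisons and near white for Shank2, Homer1 and Ppp1r9a, and siSCR replicate 1 is bluer than the other siSCR columns.

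The neurexins are presynaptic receptors that organise the contact from the sending side, and both members measured were lower in each knockdown line. Nrxn2 was at 8.22, 8.30 and 8.22 in the D3 arrays, 7.59, 8.41 and 8.38 in siSCR, 7.23, 6.998 and 7.16 in siPRMT1 and 7.0004, 7.31 and 7.14 in siPRMT8. Every knockdown array was below every control array, also below siSCR replicate 1. The log2 difference from siSCR was -0.996 in siPRMT1 (SE 0.18, 1.99-fold lower, adjusted p = 0.00381) and -0.97 in siPRMT8 (adjusted p = 0.00338). Log2 values of Nrxn3 were 8.21, 8.53 and 8.36 in D3 and 7.36, 8.61 and 8.34 in siSCR, against 6.91, 6.67 and 7.05 in siPRMT1 and 6.68, 7.17 and 7.01 in siPRMT8. Its knockdown and control arrays did not overlap either, and the differences from siSCR were -1.23 (SE 0.26, adjusted p = 0.00805) and -1.16 (adjusted p = 0.00881). With only siPRMT1 and siSCR in the fit, neither gene passed (adjusted p = 0.0564 for Nrxn2 and 0.0708 for Nrxn3).

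Their postsynaptic partners, the neuroligins, fell as well, all 3 of 3 measured. Nlgn1 measured 7.54, 7.73 and 7.48 in D3, 6.77, 7.95 and 7.70 in siSCR, 6.14, 5.82 and 6.32 in siPRMT1 and 5.85, 6.38 and 6.26 in siPRMT8. For this neuroligin of excitatory synapses the difference from siSCR was -1.38 in siPRMT1 (2.60-fold lower, SE 0.25, adjusted p = 0.00451) and -1.31 in siPRMT8 (adjusted p = 0.00463). Nlgn3 was at 8.61, 8.54 and 8.56 in the D3 arrays, 8.02, 8.77 and 8.50 in siSCR, 7.36, 7.05 and 7.25 in siPRMT1 and 7.14, 7.42 and 7.40 in siPRMT8. Nlgn3, found at excitatory and inhibitory synapses, was below every control in all knockdown arrays and had the lowest adjusted p of any member in siPRMT1 against siSCR (-1.21, SE 0.16, adjusted p = 0.00095). Its difference in siPRMT8 was -1.11 (adjusted p = 0.00121). Log2 values of Nlgn2 were 9.42, 9.49 and 9.48 in D3 and 8.90, 9.44 and 9.44 in siSCR, against 8.75, 8.65 and 8.63 in siPRMT1 and 8.55, 8.70 and 8.67 in siPRMT8. Nlgn2, the neuroligin of inhibitory synapses, was lower by a smaller amount, -0.58 (95% interval -0.85 to -0.32, adjusted p = 0.00779) and -0.62 (-0.89 to -0.36, adjusted p = 0.00462). The intervals of Nlgn2 and Nlgn3 (-1.55 to -0.87) did not overlap in siPRMT1 and overlapped in siPRMT8. In the fit of siPRMT1 and siSCR alone, Nlgn3 passed (adjusted p = 0.0333) and Nlgn1 and Nlgn2 did not (0.0558 and 0.0807).

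Among the leucine-rich repeat adhesion proteins, 8 of 12 were lower in each knockdown line against siSCR and 9 of 12 against D3. The LRRTM proteins bind neurexins or heparan sulphate proteoglycans from the postsynaptic side, and Lrrtm2 had the largest difference of any member in 3 of the 4 comparisons, all but siPRMT8 against siSCR, where Dlg2 lay lower at -1.62. Lrrtm2 measured 8.77, 8.68 and 8.54 in D3, 7.38, 8.75 and 8.43 in siSCR, 6.69, 6.19 and 6.60 in siPRMT1 and 6.58, 6.93 and 6.47 in siPRMT8. All knockdown arrays were below 7, and the lowest control was siSCR replicate 1. The log2 difference was -1.70 in siPRMT1 (SE 0.28, 3.24-fold lower than siSCR, adjusted p = 0.00271) and -1.53 in siPRMT8 (adjusted p = 0.00336). Against D3 it was -2.17 (4.49-fold, adjusted p = 0.000458) and -2.005 (adjusted p = 0.000731). The siPRMT1 call against siSCR was lost with those 2 groups alone in the fit (adjusted p = 0.0501).

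The other LRRTM genes were lower by less. Lrrtm3 was at 8.06, 8.04 and 8.01 in the D3 arrays, 7.21, 8.17 and 8.22 in siSCR, 6.92, 7.02 and 7.15 in siPRMT1 and 6.82, 7.20 and 6.98 in siPRMT8. Lrrtm3 differed from siSCR by -0.83 (adjusted p = 0.0186) and -0.86 (adjusted p = 0.0138), and these calls were lost without siSCR replicate 2 (adjusted p = 0.0841 and 0.0595), without siSCR replicate 3 (0.0853 and 0.0626), without siPRMT1 replicate 1 in siPRMT1 (0.051), and without siPRMT8 replicate 1 or 3 in siPRMT8 (0.0539 and 0.0505). Log2 values of Lrrtm1 were 6.95, 6.91 and 6.81 in D3 and 6.23, 6.87 and 6.74 in siSCR, against 6.05, 6.16 and 5.77 in siPRMT1 and 6.07, 6.16 and 6.25 in siPRMT8. For Lrrtm1 the siPRMT8 arrays overlapped siSCR replicate 1. Its difference from siSCR was -0.62 in siPRMT1 (adjusted p = 0.0138), lost without siSCR replicate 2 or 3 or siPRMT1 replicate 3 (0.0619, 0.0623 and 0.0556). In siPRMT8 it was -0.45 (adjusted p = 0.0431), a call lost in 9 of the 12 fits that each left out 1 array, at adjusted p up to 0.165 without siSCR replicate 2. Against D3, Lrrtm1 was lower at log2 differences of -0.90 and -0.73 (adjusted p = 0.00131 and 0.00389). Lrrtm4 measured 6.29, 6.49 and 6.33 in D3, 5.58, 6.51 and 6.70 in siSCR, 5.55, 5.70 and 5.83 in siPRMT1 and 5.62, 5.71 and 5.53 in siPRMT8. Lrrtm4 passed only against D3 (-0.68, adjusted p = 0.0403, and -0.75, adjusted p = 0.0251), and those calls were lost in 9 and 5 of the 12 fits without 1 array. Without siSCR replicate 1 Lrrtm4 also passed against siSCR (-0.91, adjusted p = 5.34e-05, and -0.98, adjusted p = 3.84e-05).

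Lrrc4 and Lrrc4c are the netrin-G ligands, which bind netrin-G proteins on axons. Lrrc4c was at 8.51, 8.58 and 8.47 in the D3 arrays, 7.26, 8.73 and 8.73 in siSCR, 6.87, 6.35 and 7.13 in siPRMT1 and 6.66, 7.22 and 7.05 in siPRMT8. The 3 siPRMT1 arrays and the 3 siPRMT8 arrays all lay below the controls. Lrrc4c differed from siSCR by -1.46 in siPRMT1 (2.75-fold lower, SE 0.33, adjusted p = 0.0124) and -1.26 in siPRMT8 (adjusted p = 0.0192). Log2 values of Lrrc4 were 7.62, 7.58 and 7.54 in D3 and 6.94, 7.62 and 7.45 in siSCR, against 6.49, 6.91 and 6.60 in siPRMT1 and 6.75, 6.74 and 6.84 in siPRMT8. Lrrc4 differed by -0.67 (adjusted p = 0.0107) and -0.56 (adjusted p = 0.0195). Both genes stayed past the threshold against D3 (Lrrc4c -1.74 and -1.54, Lrrc4 -0.91 and -0.80). Against siSCR in siPRMT1 the calls were lost without siSCR replicate 3 (adjusted p = 0.0595 for Lrrc4c and 0.0514 for Lrrc4) and, for Lrrc4c, without replicate 2 (0.0579). In siPRMT8 they were lost without siSCR replicate 2 (0.0801 and 0.0801) or 3 (0.0834 and 0.0772) and without siPRMT8 replicate 1 (0.0724 and 0.0585) or 3 (0.0558 and 0.0519), and for Lrrc4 without siPRMT8 replicate 2 (0.0532).

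The Slitrk family, whose members bind presynaptic receptor tyrosine phosphatases, split into 3 genes that fell and 3 that did not pass. Slitrk1, Slitrk2 and Slitrk3 were lower in all 4 comparisons. Slitrk1 measured 8.12, 8.35 and 8.21 in D3, 7.27, 8.24 and 8.11 in siSCR, 6.87, 6.73 and 6.90 in siPRMT1 and 6.78, 7.01 and 6.70 in siPRMT8. Slitrk3 was at 7.87, 7.73 and 7.79 in the D3 arrays, 6.87, 8.21 and 7.87 in siSCR, 6.60, 6.14 and 6.57 in siPRMT1 and 6.19, 6.56 and 6.35 in siPRMT8. Both genes had no overlap: the 6 knockdown arrays lay below the 6 control arrays, with siSCR replicate 1 the lowest control. Slitrk1 differed from siSCR by -1.04 (adjusted p = 0.00527) and -1.04 (adjusted p = 0.00426). Slitrk3, which acts at inhibitory synapses, differed by -1.21 (adjusted p = 0.00985) and -1.28 (adjusted p = 0.00615). Log2 values of Slitrk2 were 8.88, 8.67 and 8.85 in D3 and 7.61, 8.67 and 8.56 in siSCR, against 7.14, 7.01 and 7.42 in siPRMT1 and 7.28, 7.66 and 7.49 in siPRMT8. The siPRMT8 arrays of Slitrk2 overlapped siSCR replicate 1, and the differences were -1.09 (adjusted p = 0.00803) and -0.81 (adjusted p = 0.0248). The siPRMT8 call was lost without siSCR replicate 2 (adjusted p = 0.1004) or 3 (0.102) and without siPRMT8 replicate 1 (0.0886) or 3 (0.0719). A second, dimmer probe set of Slitrk2 was lower too, at -1.31 and -0.91 against siSCR (adjusted p = 0.00927 and 0.036 over 16407 probe sets). The siPRMT1 calls against siSCR of Slitrk1, Slitrk2 and Slitrk3 were lost in the fit of those 2 groups (adjusted p = 0.0619, 0.0741 and 0.0867).

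Slitrk4, Slitrk5 and Slitrk6 passed in none of the 6 comparisons. Slitrk5 measured 7.95, 8.22 and 8.20 in D3, 7.82, 8.12 and 8.25 in siSCR, 7.61, 8.04 and 7.80 in siPRMT1 and 7.92, 7.85 and 7.88 in siPRMT8. The knockdown arrays of Slitrk5 overlapped those of siSCR, and its difference from siSCR was -0.24 in siPRMT1 (95% interval -0.52 to 0.03) and -0.18 in siPRMT8 (-0.45 to 0.10). Those intervals did not overlap the intervals of Slitrk1 (-1.48 to -0.61 and -1.48 to -0.61) or Slitrk3 (-1.79 to -0.63 and -1.86 to -0.71). Against D3, Slitrk5 was at -0.31 and -0.24 (adjusted p = 0.0897 and 0.181), with every siPRMT8 array below the D3 arrays. In siPRMT1 it passed as lower without siSCR replicate 1 (adjusted p = 0.0431 against siSCR and 0.0486 against D3). Without siPRMT1 replicate 2 it passed against D3 (0.0238). Slitrk4 was at -0.49 and -0.49 against siSCR (adjusted p = 0.132 and 0.112) and passed without siSCR replicate 1 (-0.74, adjusted p = 0.0094, and -0.75, adjusted p = 0.00827). Its intervals there (-0.95 to -0.02 and -0.95 to -0.03) overlapped those of Slitrk1 and Slitrk3. Against D3, Slitrk4 was at -0.42 and -0.43 (adjusted p = 0.161 and 0.159), with every knockdown array below the D3 arrays. When each knockdown line was fitted with D3 alone, Slitrk4 passed as lower (adjusted p = 0.0106 and 0.00377). The siPRMT8 interval of Slitrk2 (-1.30 to -0.31) overlapped that of Slitrk5. Slitrk6 was at 0.20 and 0.57 against siSCR and -0.46 and -0.09 against D3, with adjusted p from 0.137 to 0.819.

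Promoters of the Slitrk genes are printed here because the family holds members that fell and members that did not pass. Within this 1 family, the CpG counts of the genes that fell lay between those of Slitrk5 and Slitrk6. Each promoter is the 300 bases from 250 before to 50 after the RefSeq start in GRCm38.p6, in lower case with every CpG in capitals. Slitrk1 (chr14:108914190-108914489, minus strand) and Slitrk3 (chr3:73057017-73057316, minus strand), both lower in all 4 comparisons, hold 9 CpG each, and Slitrk5 (chr14:111675777-111676076, plus strand) holds 35 and Slitrk6 (chr14:110755100-110755399, minus strand) holds 4, though both passed in none. The 2 promoters of Slitrk2, which fell, hold 8 and 17, and Slitrk4 has no entry. Camk2b (chr11:6065699-6065998, minus strand), described below and also lower in all 4, is from another family. It holds 51, the most of any member with an entry.
Slitrk1: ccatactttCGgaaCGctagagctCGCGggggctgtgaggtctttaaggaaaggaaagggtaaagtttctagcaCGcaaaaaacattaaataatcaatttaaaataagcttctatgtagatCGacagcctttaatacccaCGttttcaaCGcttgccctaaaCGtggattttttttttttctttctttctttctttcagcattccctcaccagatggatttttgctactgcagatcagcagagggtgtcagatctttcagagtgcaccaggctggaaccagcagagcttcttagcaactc
Slitrk3: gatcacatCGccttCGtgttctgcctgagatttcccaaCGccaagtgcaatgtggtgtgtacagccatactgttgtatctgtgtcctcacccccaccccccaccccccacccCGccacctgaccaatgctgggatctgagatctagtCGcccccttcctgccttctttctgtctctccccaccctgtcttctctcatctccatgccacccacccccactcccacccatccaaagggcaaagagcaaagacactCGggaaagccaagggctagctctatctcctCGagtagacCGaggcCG
Slitrk5: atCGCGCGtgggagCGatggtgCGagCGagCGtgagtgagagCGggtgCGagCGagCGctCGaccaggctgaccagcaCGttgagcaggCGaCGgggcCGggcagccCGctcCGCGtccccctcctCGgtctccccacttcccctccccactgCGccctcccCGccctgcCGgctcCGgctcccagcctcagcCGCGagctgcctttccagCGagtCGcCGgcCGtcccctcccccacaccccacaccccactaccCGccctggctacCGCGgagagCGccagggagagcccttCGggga
Slitrk6: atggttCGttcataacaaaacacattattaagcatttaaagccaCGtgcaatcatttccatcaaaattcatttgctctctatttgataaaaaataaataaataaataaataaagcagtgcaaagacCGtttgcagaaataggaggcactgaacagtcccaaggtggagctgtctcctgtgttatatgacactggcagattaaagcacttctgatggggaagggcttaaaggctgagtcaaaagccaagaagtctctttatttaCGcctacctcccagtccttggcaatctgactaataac
Camk2b: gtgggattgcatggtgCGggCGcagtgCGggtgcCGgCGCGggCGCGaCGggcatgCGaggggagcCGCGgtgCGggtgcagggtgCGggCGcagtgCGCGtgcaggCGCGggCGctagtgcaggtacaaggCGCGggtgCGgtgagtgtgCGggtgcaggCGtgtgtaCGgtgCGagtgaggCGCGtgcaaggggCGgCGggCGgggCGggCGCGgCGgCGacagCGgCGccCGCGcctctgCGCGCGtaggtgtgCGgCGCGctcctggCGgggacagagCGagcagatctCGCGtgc

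RefSeq promoters were matched for 30 of the 41 members, 47 promoters in all. Promoters on a single chromosome were left out before matching and counting, so any member there counts as unmatched. Taking the promoter richest in CpG of each gene, the 16 genes lower in all 4 comparisons held a median of 15 CpG (3 to 51) and the 8 genes that passed in none a median of 30.5 (4 to 50), against 8 over all genes with a promoter. These are descriptions with no test, and the ranges overlap almost wholly. Motifs were searched on both strands, and the first 2 below each contain a CpG themselves. GGGCGG, the GC box, was in 35.7% of all 32851 promoters kept and in 38.3% of the 47 member promoters. By pattern it was in 7 of 24 promoters of genes lower in all 4 (29.2%) and 6 of 11 of genes that passed in none (54.5%). The median GC content of these promoters was 54.17% and 63.67%, again with no test. TGACGTCA, the cAMP response element, was in 1.79% of all promoters and in 1 of the 47, that of Slitrk2. TTCAGCACC, a stretch from the left arm of the RE1 element, was in 0.371% of all and in 1 of the 47, 1 of the promoters of Nlgn1.

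The SynCAM adhesion genes split as well. These proteins bind each other across the cleft through immunoglobulin domains. Cadm3 was at 7.92, 7.86 and 7.90 in the D3 arrays, 7.19, 8.19 and 8.02 in siSCR, 6.71, 6.63 and 6.57 in siPRMT1 and 6.52, 6.65 and 6.82 in siPRMT8. Cadm3 was below every control in all 6 knockdown arrays, and it differed from siSCR by -1.16 (2.24-fold lower, adjusted p = 0.00311) and -1.14 (adjusted p = 0.00272). Log2 values of Cadm1 were 9.10, 9.17 and 8.94 in D3 and 8.59, 8.96 and 8.87 in siSCR, against 8.82, 9.11 and 8.87 in siPRMT1 and 8.87, 8.79 and 8.84 in siPRMT8. The knockdown arrays of Cadm1 overlapped those of siSCR, with differences of 0.13 (-0.10 to 0.36) and 0.03 (-0.20 to 0.25). These 95% intervals did not overlap those of Cadm3 (-1.59 to -0.73 and -1.57 to -0.71). Against D3, Cadm1 was at -0.13 and -0.24 (adjusted p = 0.352 and 0.112), with every siPRMT8 array below the D3 arrays. When siPRMT8 and D3 were fitted alone, Cadm1 passed as lower (adjusted p = 0.0224). The siPRMT1 call of Cadm3 was lost when siPRMT1 and siSCR were fitted alone (adjusted p = 0.0539).

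In the Dlg family, Dlg4 and Dlg2 fell by more than 1 on the log2 scale, Dlg3 by less and only against D3, and Dlg1 was lower in none. Dlg4 encodes PSD-95, the most studied scaffold of the postsynaptic density, and Dlg2 its close relative PSD-93. Dlg4 measured 9.08, 8.93 and 9.14 in D3, 8.60, 9.22 and 9.24 in siSCR, 8.06, 7.60 and 7.98 in siPRMT1 and 7.63, 8.07 and 7.75 in siPRMT8. Dlg2 was at 7.53, 7.63 and 7.74 in the D3 arrays, 6.80, 8.15 and 7.58 in siSCR, 6.07, 5.50 and 6.05 in siPRMT1 and 5.67, 6.23 and 5.76 in siPRMT8. For both genes the highest knockdown array was below the lowest control. Dlg4 differed from siSCR by -1.15 in siPRMT1 (SE 0.18, 2.21-fold lower, adjusted p = 0.00212) and -1.21 in siPRMT8 (2.31-fold, adjusted p = 0.00137). Dlg2 differed by -1.64 (SE 0.28, 3.11-fold, adjusted p = 0.00329) and -1.62 (3.08-fold, adjusted p = 0.00272). Against D3 the differences were -1.17 and -1.23 for Dlg4 and -1.76 and -1.75 for Dlg2. When siPRMT1 and siSCR were fitted alone, Dlg4 passed (adjusted p = 0.0407) and Dlg2 did not (0.0515).

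Dlg3 and Dlg1 encode SAP102 and SAP97, scaffolds also known from earlier stages of synapse formation and, for Dlg1, from epithelia. Log2 values of Dlg3 were 7.65, 7.53 and 7.50 in D3 and 7.15, 7.52 and 7.41 in siSCR, against 7.08, 7.25 and 6.998 in siPRMT1 and 7.15, 7.25 and 7.30 in siPRMT8. Dlg3 was lower than D3 at log2 differences of -0.45 (adjusted p = 0.00591) and -0.33 (adjusted p = 0.0276), and its differences from siSCR, -0.25 and -0.13, did not pass (adjusted p = 0.0936 and 0.381). Its siPRMT8 call against D3 was lost without any 1 of the D3 arrays (adjusted p = 0.107, 0.0588 and 0.0509) and without siPRMT8 replicate 1 or 2 (0.0987 and 0.0609). Dlg1 measured 9.38, 9.27 and 9.31 in D3, 9.47, 9.32 and 9.25 in siSCR, 9.56, 9.52 and 9.54 in siPRMT1 and 9.48, 9.51 and 9.47 in siPRMT8. Dlg1 was higher in siPRMT1 than in D3 by 0.22 (adjusted p = 0.0262), and its other differences were 0.19 and 0.14 from siSCR (adjusted p = 0.0565 and 0.144) and 0.16 of siPRMT8 from D3 (adjusted p = 0.0801). The Dlg1 call was lost without D3 replicate 2 or 3 (0.0956 and 0.0789) or siPRMT1 replicate 1 or 3 (0.0595 and 0.0669), and without siSCR replicate 1 Dlg1 passed as higher in all 4 comparisons. The 95% intervals against siSCR of Dlg1 (0.05 to 0.33 in siPRMT1) and Dlg3 (-0.47 to -0.04) did not overlap those of Dlg2 (-2.25 to -1.02) and Dlg4 (-1.53 to -0.76), and the same held in siPRMT8.

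The Dlgap genes, whose proteins bridge PSD-95 and Shank, had 1 of 4 that passed by the probe sets the rule chose. Dlgap3 was at 7.49, 7.48 and 7.49 in the D3 arrays, 7.50, 7.43 and 7.66 in siSCR, 7.59, 7.33 and 7.43 in siPRMT1 and 7.25, 7.29 and 7.15 in siPRMT8. Dlgap3 passed as lower in siPRMT8, at log2 differences of -0.30 from siSCR (adjusted p = 0.0191) and -0.26 from D3 (adjusted p = 0.0311). The siPRMT1 arrays were at -0.08 and -0.04 (adjusted p = 0.525 and 0.763), but the knockdown lines themselves did not differ at the threshold (0.22, adjusted p = 0.305). The siSCR call was lost without siSCR replicate 3 (0.0819) or siPRMT8 replicate 3 (0.0818), and the D3 call without any 1 D3 array (0.0844, 0.0737 and 0.0839) or siPRMT8 replicate 1 or 3 (0.0687 and 0.114). Against siSCR Dlgap2 was at -0.13 and -0.10 and Dlgap4 at -0.18 and -0.20, and neither passed. Without siPRMT1 replicate 2, Dlgap4 passed as lower in all 4 (adjusted p = 0.00368 to 0.0282).

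Dlgap1 depends on the probe set. The brighter of its 2 probe sets, used by the rule, was at 7.80, 7.98 and 8.06 in siSCR, 7.61, 8.07 and 7.77 in siPRMT1 and 7.63, 7.71 and 7.56 in siPRMT8 and did not pass (adjusted p = 0.431 and 0.0563 against siSCR). The dimmer one was at 6.39, 6.56 and 6.62 in D3, 6.09, 6.95 and 6.74 in siSCR, 5.61, 5.69 and 5.76 in siPRMT1 and 5.73, 5.67 and 5.39 in siPRMT8. There every knockdown array was below every control array. Its differences from siSCR were -0.91 (SE 0.18, adjusted p = 0.00604) and -0.99 (adjusted p = 0.00327), and from D3 -0.84 and -0.93 (adjusted p = 0.00534 and 0.00313), adjusted over 16407 probe sets. The array annotation ties the dimmer probe set to RefSeq mRNAs and the brighter one to cDNA clones alone. This alternative was chosen after the values were seen.

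Of the Shank genes, which form the deep layer of the scaffold, Shank1 was lower and Shank2 and Shank3 did not pass. Log2 values of Shank1 were 7.08, 6.999 and 6.86 in D3 and 6.53, 7.28 and 7.31 in siSCR, against 6.16, 6.21 and 6.09 in siPRMT1 and 5.94, 6.06 and 5.996 in siPRMT8. The knockdown arrays of Shank1 were below all controls, with differences from siSCR of -0.89 (1.85-fold lower, SE 0.16, adjusted p = 0.00468) and -1.04 (2.06-fold, adjusted p = 0.00186). Its siPRMT1 call was lost with siPRMT1 and siSCR alone in the fit (adjusted p = 0.062). Shank3 measured 6.57, 6.47 and 6.68 in D3, 6.38, 6.49 and 6.57 in siSCR, 6.39, 6.44 and 6.33 in siPRMT1 and 6.51, 6.37 and 6.26 in siPRMT8. Shank2 was at 6.82, 6.81 and 6.998 in the D3 arrays, 7.08, 6.94 and 7.04 in siSCR, 6.95, 7.22 and 7.06 in siPRMT1 and 7.03, 7.002 and 6.998 in siPRMT8. Here the groups lay close together. The differences from siSCR were -0.09 (-0.27 to 0.08) and -0.10 (-0.28 to 0.07) for Shank3 and 0.06 (-0.11 to 0.23) and -0.01 (-0.18 to 0.16) for Shank2. None of these 95% intervals overlapped that of Shank1 (-1.25 to -0.53 and -1.40 to -0.68). Against D3, Shank3 was at -0.19 and -0.19 (adjusted p = 0.11 and 0.0968), with every siPRMT1 array below the D3 arrays. With array weights Shank3 passed against D3 in both lines. Shank2 has 3 probe sets, which differ: the second stood at -0.32 and -0.39 against siSCR without passing (adjusted p = 0.134 and 0.0657), and the dimmest was higher in siPRMT1 than in D3 (0.26, adjusted p = 0.0271).

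The Homer genes, whose proteins cross-link Shank with metabotropic glutamate receptors, did not pass as lower in any comparison by the probe sets the rule chose. Log2 values of Homer1 were 7.98, 8.02 and 7.95 in D3 and 7.87, 8.02 and 7.94 in siSCR, against 7.96, 7.95 and 8.06 in siPRMT1 and 7.91, 7.96 and 8.02 in siPRMT8. All 12 arrays of Homer1 overlapped, and the 95% intervals against siSCR were -0.09 to 0.18 and -0.11 to 0.15. Homer3 lay 0.13 to 0.24 above the controls without passing (adjusted p = 0.136 to 0.441). Homer2 measured 7.19, 7.22 and 7.24 in D3, 6.96, 6.98 and 7.05 in siSCR, 6.91, 7.19 and 7.02 in siPRMT1 and 7.33, 7.14 and 7.23 in siPRMT8. Homer2 was higher in siPRMT8 than in siSCR by 0.24 (adjusted p = 0.0423), a call lost in 9 of the 12 fits without 1 array, at adjusted p up to 0.149 without siPRMT8 replicate 1. Its siPRMT8 difference from D3 was 0.02 (adjusted p = 0.888), and siSCR itself lay at -0.22 from D3 (adjusted p = 0.361). Every siPRMT1 array of Homer2 was below the D3 arrays (-0.18, adjusted p = 0.103). Without siPRMT1 replicate 2, Homer2 passed there as lower (-0.25, adjusted p = 0.0179). Its dimmer probe set was lower than D3 in both lines (-0.74, adjusted p = 0.00291, and -0.55, adjusted p = 0.0123), and against siSCR it did not pass (-0.22 and -0.04).

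**Figure D3:**
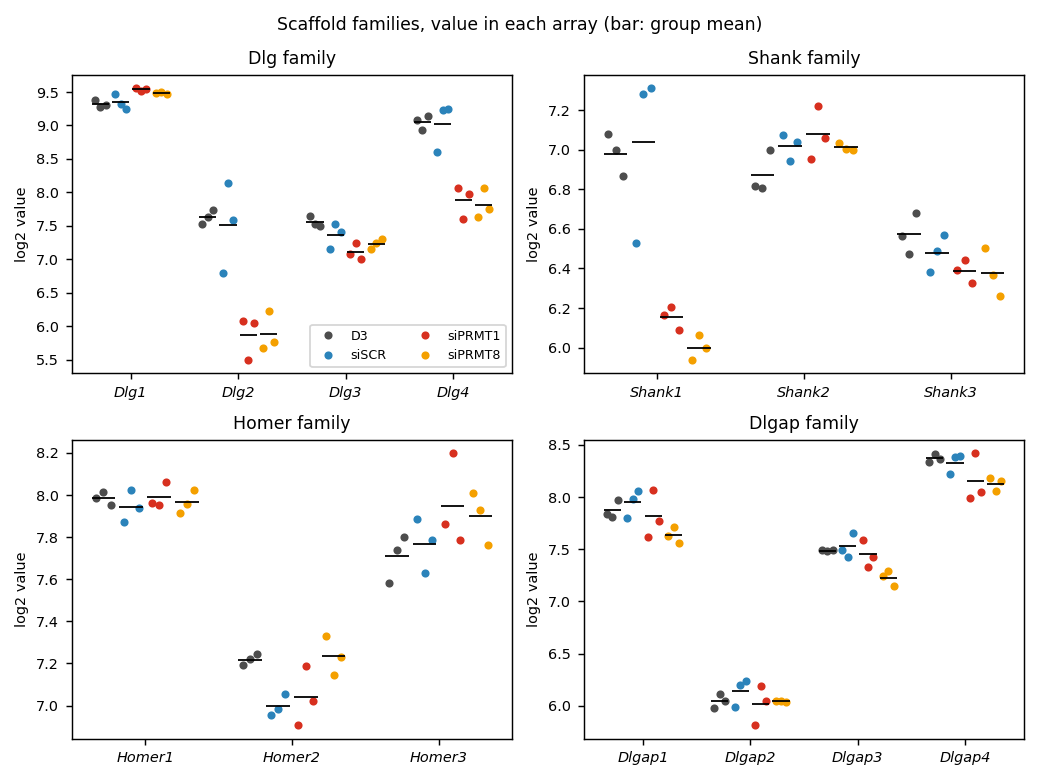
Log2 value in each array for the Dlg, Shank, Homer and Dlgap genes, coloured by group, with a bar at each group mean; levels of different genes come from different probe sets and are not comparable. The siPRMT1 and siPRMT8 points lie below the control points for Dlg2, Dlg4 and Shank1 and among them for Shank2, Homer1 and Dlgap2.

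Gephyrin, the scaffold that anchors glycine and GABA receptors, was lower in all 4 comparisons. Gphn was at 8.86, 8.89 and 8.90 in the D3 arrays, 8.42, 9.04 and 8.89 in siSCR, 8.12, 8.32 and 8.35 in siPRMT1 and 8.30, 8.37 and 8.41 in siPRMT8. The knockdown arrays lay below the control arrays by a narrow margin, 8.4116 at the highest against 8.4176 at the lowest, and the differences from siSCR were -0.52 (adjusted p = 0.0169) and -0.42 (adjusted p = 0.0346). The call in siPRMT1 was lost without siSCR replicate 2 or 3 or siPRMT1 replicate 1 (0.0716, 0.0732 and 0.0523), and that in siPRMT8 in 8 of the 12 fits without 1 array, at adjusted p up to 0.135 without siSCR replicate 2. Against D3 Gphn was at -0.62 and -0.52 (adjusted p = 0.00466 and 0.0109).

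Of the CaMKII genes, the beta subunit had the largest difference and the alpha subunit passed in 1 of the 4 comparisons. Log2 values of Camk2b were 8.98, 8.97 and 9.08 in D3 and 8.56, 9.36 and 9.36 in siSCR, against 7.95, 7.57 and 7.88 in siPRMT1 and 7.72, 7.91 and 7.77 in siPRMT8. For Camk2b, whose product binds actin in spines, the knockdown arrays lay far below the controls. The difference from siSCR was -1.30 (SE 0.18, 2.45-fold lower, adjusted p = 0.0013) and -1.29 (2.45-fold, adjusted p = 0.0012). Camk2g measured 9.15, 9.12 and 9.03 in D3, 8.88, 9.20 and 9.10 in siSCR, 8.63, 8.39 and 8.63 in siPRMT1 and 8.47, 8.69 and 8.65 in siPRMT8. The gamma subunit, Camk2g, was below the controls without overlap, at log2 differences of -0.51 (adjusted p = 0.00515) and -0.46 (adjusted p = 0.00684). Camk2a was at 5.88, 5.95 and 5.98 in the D3 arrays, 5.62, 6.03 and 5.96 in siSCR, 5.68, 5.82 and 5.65 in siPRMT1 and 5.65, 5.61 and 5.57 in siPRMT8. Camk2a passed only in siPRMT8 against D3 (-0.33, adjusted p = 0.0238), a call lost without D3 replicate 2 or 3 (0.0668 and 0.0798) or siPRMT8 replicate 2 or 3 (0.0584 and 0.0798). Without siSCR replicate 1 it passed against siSCR too (-0.28, adjusted p = 0.0129, and -0.39, adjusted p = 0.00181). The 95% intervals of Camk2a against siSCR (-0.36 to 0.06 and -0.47 to -0.05) did not overlap those of Camk2b (-1.69 to -0.90 and -1.69 to -0.90). Camk2a lay not far above 5.43, the mean level under which genes were not tested. Dim probe sets may carry background, so its range for a fall may be narrower than that of Camk2b. Log2 values of Camk2n1 were 7.95, 7.90 and 8.04 in D3 and 7.63, 8.36 and 8.37 in siSCR, against 7.34, 7.27 and 7.33 in siPRMT1 and 7.21, 7.27 and 7.25 in siPRMT8. Camk2n1, an inhibitor of the kinase, was lower together with the beta subunit, at log2 differences of -0.81 (adjusted p = 0.00531) and -0.88 (adjusted p = 0.00297). In the fit of siPRMT1 and siSCR alone, Camk2b passed (adjusted p = 0.0408) and Camk2g and Camk2n1 did not (0.0579 and 0.0694).

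The actin-binding scaffolds of spines split again. Ppp1r9b measured 8.53, 8.48 and 8.55 in D3, 8.17, 8.48 and 8.50 in siSCR, 7.90, 8.12 and 7.97 in siPRMT1 and 8.01, 7.98 and 8.0002 in siPRMT8. Ppp1r9b, spinophilin, was lower than siSCR at log2 differences of -0.39 (adjusted p = 0.0119) and -0.39 (adjusted p = 0.0096), and the siPRMT1 call was lost without siSCR replicate 2 or 3 (0.0565 and 0.0575). Ppp1r9a was at 7.46, 7.55 and 7.41 in the D3 arrays, 7.45, 7.55 and 7.39 in siSCR, 7.56, 7.34 and 7.74 in siPRMT1 and 7.56, 7.65 and 7.59 in siPRMT8. Ppp1r9a, neurabin, lay slightly above siSCR (0.08 and 0.14) without passing, and its 95% intervals (-0.12 to 0.28 and -0.06 to 0.34) did not overlap those of Ppp1r9b (-0.58 to -0.19 and -0.58 to -0.20). Intervals set side by side in this way are the comparison made between members of a family, and no further test of the difference between 2 genes was run.

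**Figure D4:**
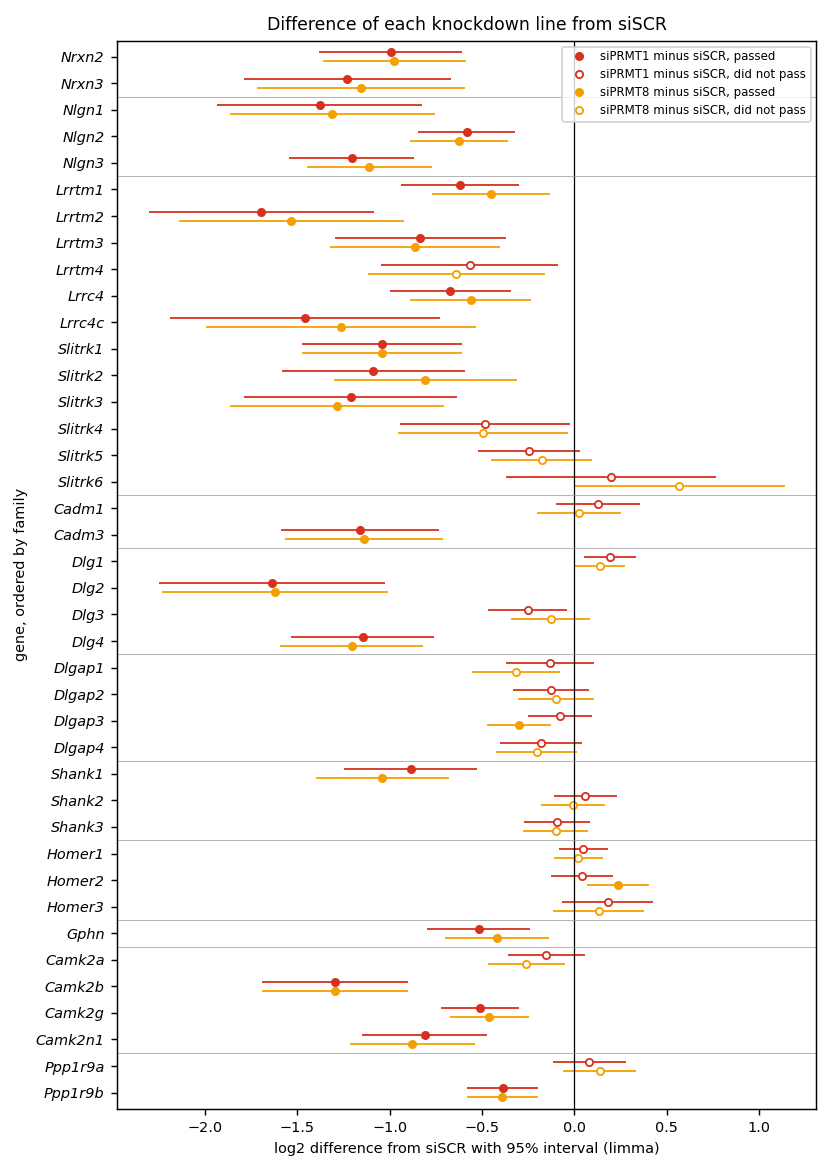
Log2 difference of siPRMT1 (red) and siPRMT8 (orange) from siSCR for each of the 40 members, with 95% intervals from limma; filled points passed the threshold and open points did not. Most points lie left of 0, 32 of 40 in siPRMT1 and 33 of 40 in siPRMT8, and they run from -1.70 for Lrrtm2 in siPRMT1 to 0.57 for Slitrk6 in siPRMT8.

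No member passed between the 2 knockdown lines. With limma, 0 of 40 were called in siPRMT1 against siPRMT8, where 0.154% of all genes were, and 2 of 40, Dlgap3 and Homer2, had an unadjusted p under 0.05, against 12.2% of all genes. The log2 differences ran from -0.37 to 0.22. Their 95% interval lay within 0.5 of 0 for 30 of the 40 members and within 1 for all 40, so differences of more than 2-fold between the lines are outside these intervals for every member. Cadm3 lay at -0.02 (-0.45 to 0.41), Dlg2 at -0.01 (-0.63 to 0.60) and Lrrtm2 at -0.16 (-0.77 to 0.44). Without siPRMT1 replicate 2, Homer2 passed as lower in siPRMT1 (-0.27, adjusted p = 0.0453).

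No member passed between the controls either. With limma, 0 of 40 passed in siSCR against D3 (0.154% of all genes), and 4 of 40, Slitrk2, Slitrk6, Cadm1 and Homer2, had an unadjusted p under 0.05, against 9.56% of all genes. The median difference was -0.10, and the 95% interval lay within 1 of 0 for 36 of the 40. Without siSCR replicate 1, Camk2n1 passed as higher in siSCR (0.40, adjusted p = 0.0388).

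Many other genes of the same synaptic pathways were lower too, with no test of their shares against those of the members. Of 56 listed genes that are not members, 51 had a probe set and 50 were tested. Against siSCR, 24 were lower in siPRMT1 and 24 in siPRMT8, against D3 31 and 29, and 0 were higher in any of the 4. Of the 31 other adhesion genes tested, among them receptor phosphatases, latrophilins and cerebellins, 16 and 17 were lower against siSCR (51.6% and 54.8%), and of the 19 other scaffold and signalling genes 8 and 7 (42.1% and 36.8%). The genes with the largest differences from siSCR in both lines were Apba1 (-1.41 and -1.36) and Lin7a (-1.20 and -1.08), whose products form a presynaptic and postsynaptic adaptor complex with CASK, and Lrfn5 (-1.36 and -1.33), a leucine-rich repeat adhesion protein. Against D3 they were Cbln1 (-1.90 and -1.66) and Cbln4 (-1.69 and -1.59), secreted proteins that bridge neurexins to postsynaptic receptors, with Lin7a (-1.69) in siPRMT1 and Apba1 (-1.59) in siPRMT8. All of these passed, at adjusted p from 0.0001997 to 0.0115.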

How the data were processed

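Per the labels, biotin-labelled cDNA from total RNA of 12 cultures was hybridised to arrays, 1 array each. The values the authors deposited are on a log2 scale (0.97 to 13.54, with array medians within 0.023 of each other). The background correction, summarisation and normalisation steps have no description in the labels or headers, and no detection calls were used, so dim probe sets may carry background. Of 35556 probe sets, 21789 have 1 gene symbol, 1621 several and 12146 none. Symbols were updated by gene ID through RefSeq GRCm38.p6 for 21698. Per symbol the probe set with the highest mean was kept (999 of 19938 symbols have several), and the lowest 25% by mean (under 5.43) were left out, leaving 14953 genes.

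The test was limma 3.58.1 (R 4.3.3), with 1 mean per group over all 12 arrays, 6 comparisons, Benjamini-Hochberg adjustment over all 14953 genes and a threshold of 0.05. It was tested on simulated data. The members and lists were chosen with earlier results of these data known. All 41 members are accounted for, those that passed in full, with up to 3 genes per direction and comparison from the pathway lists. The number of arrays limits the precision: standard errors of the member differences were 0.061 to 0.335. Deviations from the group means in same-numbered arrays correlated at 0.107 to 0.194 between siSCR and D3. The other pairs of groups gave -0.56 to 0.29. Differently numbered arrays were not compared, so these values do not show a pairing. Alternatives were the filter, normalisation, probe set rule, arrays fitted, variance model, array weights, replicate number as a block, and leaving out each array.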

Additional observations from a re-analysis of the deposited data

How the results depend on the processing

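The members gave 97 calls in the 6 comparisons; 64 were kept in all 21 alternatives, 33 were lost in at least 1, and 0 reversed. Leaving out each array in turn, the members called ranged from 16 to 28 in siPRMT1 against siSCR, 16 to 28 in siPRMT8 against siSCR, 23 to 27 in siPRMT1 against D3, 22 to 28 in siPRMT8 against D3, 0 to 1 in siSCR against D3 and 0 to 1 in siPRMT1 against siPRMT8. With only the groups compared in the fit, siPRMT1 against siSCR gave 3 calls, siPRMT8 against siSCR 19, siPRMT1 against D3 26 and siPRMT8 against D3 32. Dropping both siSCR replicate 1 and replicate 2 of siPRMT1 was an alternative added once the data had been seen. The counts were then 31 and 32 against siSCR, 2 in siSCR against D3 (Camk2b and Camk2n1) and 3 in siPRMT1 against siPRMT8 (Dlgap3, Homer2 and Lrrc4). Over all 14953 genes that fit called 2479 lower and 2598 higher in siPRMT1 against siSCR, and 2927 and 2783 in siPRMT8. It called 47 lower and 105 higher in siSCR against D3, and 767 and 1134 in siPRMT1 against siPRMT8. With the replicate block the counts were 22, 24, 26, 26, 0 and 0 in the same order of comparisons; it lost Homer2 and added Lrrtm4 in siPRMT8 against siSCR and added Slitrk5 in siPRMT1 against D3, and changed no other call. With array weights they were 31, 31, 32, 33, 0 and 0. Calls over all genes were not counted for the array weights, the replicate block or the fits without a D3, siPRMT1 or siPRMT8 array. The member counts of those fits therefore cannot be read as changes particular to the members. No scaling moved the median of all genes by over 0.1. The causes of these changes were not tested. With 3 arrays a group and standard errors of up to 0.335, small changes in the most variable members were not detectable.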
